A study of Homo sapiens with 4 samples.

Results

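The HOX genes of the 4 clusters HOXA, HOXB, HOXC and HOXD were followed in LNCaP cells given 5-azacytidine. Members were all array features whose annotated gene symbol was HOX, a cluster letter from A to D and a number, and the features of a gene were averaged. This gave 38 features for 29 of 18334 measured genes, namely 1 HOXA gene (HOXA2), 10 HOXB, 9 HOXC and 9 HOXD genes. The other HOXA genes were not analysed here. LNCaP is an androgen-responsive line derived from a lymph node metastasis of prostate carcinoma, and 5-azacytidine is a nucleoside analogue that, once built into DNA, captures the enzymes that methylate cytosine, so that methylation is lost as cells divide. All cells, the controls included, were first kept without serum for 24 h. Treatment with the drug at 1 µM, or with the solvent DMSO (dimethyl sulphoxide) alone, then lasted 24 h or 48 h. On each of 4 2-colour Agilent arrays, 2 at each time, drug-treated RNA in Cy5 was compared with DMSO RNA of the same time in Cy3, so a value is a log2 ratio of 5-azacytidine over DMSO.

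HOX genes encode homeodomain transcription factors that give cells their identity along the body axis. Within a cluster the genes lie in the order in which they are used along that axis, from anterior (low numbers) to posterior (high numbers), and genes of the same number in different clusters are paralogues. Clusters that are not in use are held silent by Polycomb complexes, and many HOX promoters lie in CpG islands that can gain DNA methylation in cancer. In the prostate the posterior gene HOXB13 is expressed through adult life and its protein acts together with the androgen receptor.

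Dyes were not swapped, so a dye effect on a feature and the effect of the drug cannot be told apart. The labels do not say that replicates came from separate cultures, so each p-value refers to the spread of these arrays alone, and that spread may be technical. Among the 29 HOX genes the median difference between replicate arrays, as an absolute log2 value, was 0.09 at 24 h and 0.28 at 48 h, against 0.13 and 0.33 over all genes. Precision is limited by the number of arrays, and each SD given is over n = 2 arrays. The table holds ratios and no levels, so it does not show which HOX genes were transcribed in vehicle cells, and the cell line could not be checked by marker levels. A ratio of bulk RNA does not tell a change in the share of cells from a change in RNA per cell. HOXB1, HOXD4, HOXD11 and HOXD12 were listed at exactly 0 on all 4 arrays. The scanner software writes 0 for several reasons, including a signal not above background in either channel. Such genes made up 13.8% of HOX genes and 5.94% of all genes.

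The promoter sequences below are those of the HOX gene with the highest ratio (HOXD8), of a window that HOXC4 and HOXC5, the lowest at 24 h, have in common, and of 2 non-HOX genes beside or within HOX clusters with large ratios of opposite sign. PRAC1, which encodes a small nuclear protein of prostate and distal gut, neighbours HOXB13, and HOTTIP is a long non-coding RNA gene at the posterior end of HOXA. All were chosen with their values known, HOXD8 by a rule on the ratio and the others outside that rule. Each is the 250 bases before the annotated start, from RefSeq with build GRCh38.p14, and capitals mark every CG, the dinucleotide that is methylated in human DNA. The windows are HOXD8 at chr2:176129455-176129704 on the plus strand, HOXC4 and HOXC5 at chr12:54016638-54016887 on the plus strand, PRAC1 at chr17:48722519-48722768 on the minus strand and HOTTIP at chr7:27200171-27200420 on the plus strand.
HOXD8: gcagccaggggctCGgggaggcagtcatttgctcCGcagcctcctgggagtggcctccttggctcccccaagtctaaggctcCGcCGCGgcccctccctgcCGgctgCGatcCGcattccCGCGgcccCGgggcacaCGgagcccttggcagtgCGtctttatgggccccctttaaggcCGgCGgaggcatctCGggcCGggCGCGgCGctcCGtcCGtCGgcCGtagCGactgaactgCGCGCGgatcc
HOXC4 and HOXC5: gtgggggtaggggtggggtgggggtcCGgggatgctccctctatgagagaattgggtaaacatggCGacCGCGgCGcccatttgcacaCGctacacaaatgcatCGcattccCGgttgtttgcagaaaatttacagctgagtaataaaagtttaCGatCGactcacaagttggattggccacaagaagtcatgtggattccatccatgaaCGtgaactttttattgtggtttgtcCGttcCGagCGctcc
PRAC1: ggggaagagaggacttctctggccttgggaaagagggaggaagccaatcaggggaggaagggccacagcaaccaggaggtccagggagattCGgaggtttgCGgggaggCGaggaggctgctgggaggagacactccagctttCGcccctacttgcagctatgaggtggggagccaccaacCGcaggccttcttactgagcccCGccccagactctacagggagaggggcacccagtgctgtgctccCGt
HOTTIP: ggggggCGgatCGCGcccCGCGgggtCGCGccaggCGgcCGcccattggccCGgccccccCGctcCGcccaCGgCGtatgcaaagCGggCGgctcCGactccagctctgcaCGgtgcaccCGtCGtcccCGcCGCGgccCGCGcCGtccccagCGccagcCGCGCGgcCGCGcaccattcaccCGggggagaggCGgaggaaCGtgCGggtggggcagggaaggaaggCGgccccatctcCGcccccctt

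The HOXD8 window held 28 CG, and 15.9% of the 35116 promoter windows of this length held at least as many. The HOXC4 and HOXC5 window held 14 (44.8%), that of PRAC1 7 (58.9%) and that of HOTTIP 38 (3.3%). Windows were found for 12 of the 29 HOX genes. As HOXC4 and HOXC5 share one, 11 were distinct, with a median of 21 CG against 11 over all 34943 distinct windows. They ranged from 4 in HOXD4 to 31 in HOXD1. The letters TGATNNAT, a site form that HOX proteins bind with their partner PBX, were searched on both strands. They occurred in 3 of these 11 windows, those of HOXA2, HOXB1 and HOXD11, and in 6.49% of all distinct windows. These counts describe letters only, and DNA methylation was not analysed here.

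After 24 h of drug 3 HOX genes were higher (HOXD8, HOXB6 and HOXB2) and 5 were lower (HOXB13, HOXB5, HOXC9, HOXB3 and HOXC6), by limma with an adjusted p threshold of 0.05. That is 10.3% and 17.2% of the 29 genes, whereas 14.3% of all genes passed higher and 9.97% lower. After 48 h 7 were higher (HOXD8, HOXB4, HOXB6, HOXC8, HOXC9, HOXB9 and HOXB2) and 2 were lower (HOXB13 and HOXC6), or 24.1% and 6.9%, against 18.2% and 20.7% of all genes. In the average of both times 5 were higher and 3 lower, against 16.7% and 16.2% of all genes. At an unadjusted p under 0.05 the HOX counts were 4 higher and 10 lower at 24 h (23.3% and 19.1% of all genes), 8 and 2 at 48 h (25% and 27.6%), and 6 and 7 in the average (22.2% and 24.2%). The median ratio over the 29 genes was -0.04 at 24 h and 0.08 at 48 h, and that over all genes was 0 at both. By size alone, 2 HOX genes were at least 2-fold higher on both 24 h arrays (HOXD8 and HOXD1; 9.91% of all genes) and 6 at least 2-fold lower (HOXB5, HOXB13, HOXC4, HOXC5, HOXC9 and HOXC12; 4.45% of all genes). At 48 h these numbers were 4 (HOXB4, HOXB6, HOXC8 and HOXD8; 9.58% of all genes) and 1 (HOXB13; 9.86% of all genes). The calls, of HOX genes and of others, need both 24 h arrays: without either of them limma called 0 of all 18334 genes in every comparison, HOX genes included. At an unadjusted p under 0.05 there were then 2 HOX genes higher (12.4% or 11.8% of all genes) and 4 or 5 lower (8.35% or 7.84%) at 24 h, and 6 higher (16.6%) and 2 lower (17.8%) at 48 h. Without 48 h replicate 1 or replicate 2, HOXB3 and HOXC6 lost their 24 h call and HOXC6 its 48 h call. From the 24 h arrays alone HOXB3 and HOXC6 were not called at 24 h either. HOXA2, HOXC4, HOXC5 and HOXC12 were then called lower and HOXD1 higher. In that setting limma called 20.3% of all genes higher and 16% lower at 24 h.

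**Figure D1:**
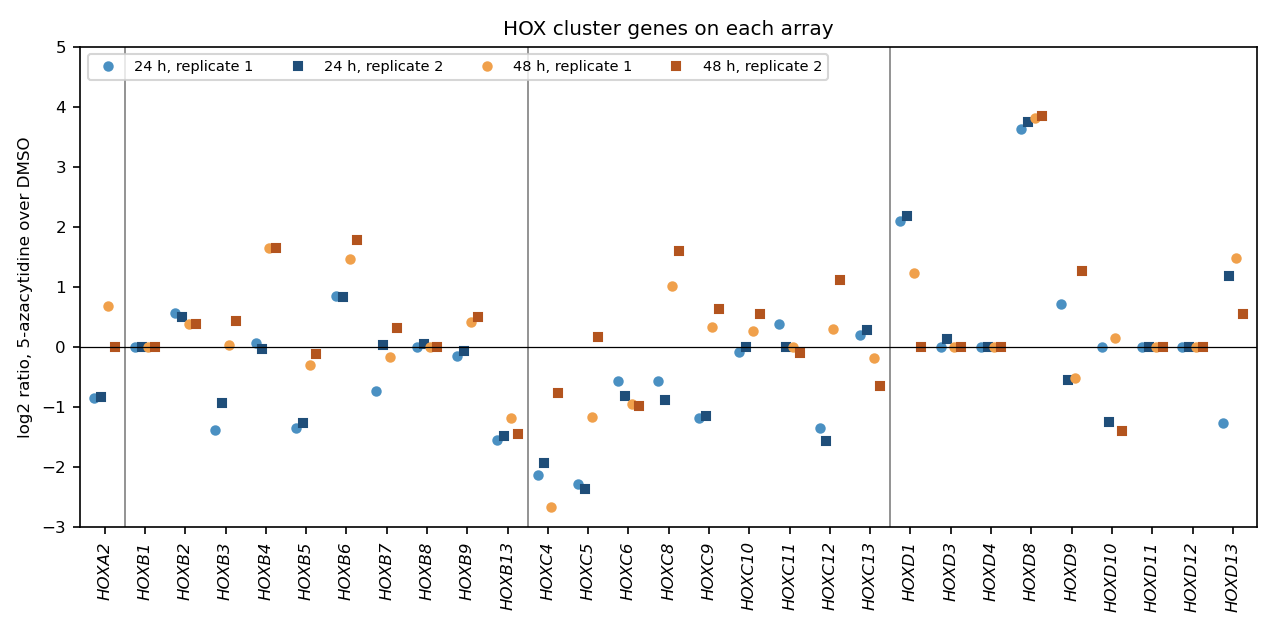
Log2 ratio of 5-azacytidine over DMSO (vertical axis) for each of the 29 HOX genes, with a point for each of the 4 arrays and vertical lines between clusters. HOXD8 stands between 3.64 and 3.86 on all 4 arrays, and HOXC4 and HOXC5 have the lowest values at 24 h.

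HOXD8, a central HOXD gene, had the highest ratio of the family at both times. Its ratio was 3.64 and 3.76 at 24 h and 3.81 and 3.86 at 48 h, so all 4 arrays lay within a narrow band far above 0. Its mean was 3.70 ± 0.085 at 24 h (13-fold, limma adjusted p = 0.0126) and 3.83 ± 0.034 at 48 h (14.2-fold, limma adjusted p = 0.00714). It ranked 149 of 18334 genes from the top at 24 h and 185 at 48 h. The difference between times was 0.13 and was not called (limma adjusted p = 0.246). It became -0.95 with arrays scaled to one spread and -0.31 with quantile normalization, also without a call. HOXD8 is measured by a single feature. Its paralogues behaved otherwise at 24 h: HOXB8 was at 0, 0.04, 0 and 0 on the 4 arrays, and HOXC8 was below 0 at 24 h and above 0 at 48 h.

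No other HOXD gene passed a test. HOXD1, at the anterior end of the cluster, stood at 2.10 and 2.18 at 24 h and at 1.22 and 0 at 48 h. Its 24 h value was high on both arrays but missed the threshold (limma adjusted p = 0.0525), and its 48 h arrays differed by more than their mean. With the arrays scaled to one spread, with quantile normalization or without either 48 h array, HOXD1 passed at 24 h. HOXD13, which patterns the digits, was at -1.28 and 1.17 at 24 h and 1.49 and 0.55 at 48 h. HOXD9 was at 0.72 and -0.56 at 24 h and at -0.53 and 1.26 at 48 h, and HOXD10 was at 0 and -1.26, then at 0.14 and -1.41. The replicate arrays of these 3 posterior genes disagreed at both times, in sign except for the 48 h arrays of HOXD13 and the 24 h arrays of HOXD10, 1 of which is at 0. HOXD3 was at 0.13 on 24 h replicate 2 and at 0 on the other arrays.

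HOXB13, the HOX gene of adult prostate epithelium, was lower at both times. Its ratio was -1.55 and -1.48 at 24 h and -1.20 and -1.46 at 48 h, below 0 on every array. The mean was -1.52 ± 0.049 at 24 h, or 2.86-fold lower (limma adjusted p = 0.0162), and -1.33 ± 0.19 at 48 h, or 2.51-fold lower (limma adjusted p = 0.0118). Both of its features were below -1.1 on every array, and the difference between times, 0.19, missed the threshold (limma adjusted p = 0.347). With arrays scaled to one spread it was 0.62 and with quantile normalization 0.78, and both were called (limma adjusted p = 0.0442 and 0.0224). Genes on either side of it in the gene table moved the same way. PRAC1 was at -2.57 and -2.44 at 24 h and -2.77 and -3.09 at 48 h (limma adjusted p = 0.0145 and 0.00767). TTLL6, which encodes a tubulin-modifying enzyme, was at -2.06 and -1.84 at 24 h and -1.30 and -0.96 at 48 h (limma adjusted p = 0.0178 and 0.0214). HOXB9, the next HOX gene along the cluster, was at -0.15 and -0.08 at 24 h and at 0.42 and 0.50 at 48 h, so its 48 h arrays lay above 0 and those of HOXB13 below.

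Within the rest of the HOXB cluster neighbouring genes differed in sign at 24 h. HOXB6 was higher, at 0.85 and 0.83 at 24 h and 1.47 and 1.77 at 48 h (means 0.84 ± 0.015 and 1.62 ± 0.21, limma adjusted p = 0.0306 and 0.0104). HOXB5, beside it, was at -1.36 and -1.27 at 24 h and at -0.30 and -0.11 at 48 h. It was lower at 24 h (-1.31 ± 0.061, limma adjusted p = 0.0155) and not called at 48 h (-0.21 ± 0.13, limma adjusted p = 0.115). HOXB3, a gene of hindbrain patterning, was at -1.39 and -0.94 at 24 h and at 0.02 and 0.43 at 48 h. Its 24 h mean of -1.16 ± 0.32 passed narrowly (limma adjusted p = 0.0476), and its 48 h mean of 0.23 ± 0.29 did not (limma adjusted p = 0.421).

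HOXB4, known for expanding blood stem cells when overexpressed, was near 0 at 24 h and high at 48 h. It was at 0.07 and -0.04 at 24 h and at 1.64 and 1.65 at 48 h, with a 48 h mean of 1.65 ± 0.009, or 3.13-fold (limma adjusted p = 0.00714). The close match of these 48 h values comes from averaging: one HOXB4 feature was at 2.27 and 2.74 and the other at 1.01 and 0.57. HOXB2 was at 0.56 and 0.49 at 24 h and at 0.37 on both 48 h arrays (limma adjusted p = 0.0185 and 0.0178). Its feature with signal was between 0.74 and 1.12 on the 4 arrays, and its other feature was listed at 0 on 3 of them, which draws the gene mean toward 0. HOXB9 was higher at 48 h (0.46 ± 0.055, limma adjusted p = 0.0176) and not called at 24 h (-0.12 ± 0.052, limma adjusted p = 0.174). HOXB7 was between -0.75 and 0.32 on the 4 arrays, and HOXB8 between 0 and 0.04, and neither passed a test. Without 48 h replicate 1 HOXB2 lost its 48 h call, and without 48 h replicate 2 HOXB2, HOXB9, HOXC8 and HOXC9 lost theirs.

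In the HOXC cluster 7 of 9 genes had a 24 h mean below 0, against 8099 of all 18334 genes. The HOXC median was -0.73, and that over all genes was 0. By limma 2 of the 9 were called lower at 24 h, against 9.97% of all genes. HOXC5 was at -2.29 and -2.37 at 24 h and at -1.17 and 0.16 at 48 h. HOXC4 was at -2.14 and -1.95 at 24 h and at -2.68 and -0.77 at 48 h. These were the lowest HOX values at 24 h, but neither passed (limma adjusted p = 0.0523 and 0.11), and the 48 h arrays of each differed by over 1. From the 24 h arrays alone both genes were called lower. HOXC4 and HOXC5 are listed with the same start in the promoter table, as described above. HOXC6, which is often raised in prostate carcinoma, was modestly lower at both times, at -0.57 and -0.82 and then at -0.96 and -0.996 (means -0.69 ± 0.17 and -0.98 ± 0.026, limma adjusted p = 0.0313 and 0.0145).

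HOXC8 and HOXC9, which help specify thoracic identity in the embryo, had ratios of opposite sign at the 2 times. HOXC8 was at -0.57 and -0.89 at 24 h and at 1.01 and 1.60 at 48 h, and both of its features gave this pattern. It passed at 48 h (1.31 ± 0.42, limma adjusted p = 0.0341) and not at 24 h (-0.73 ± 0.22, limma adjusted p = 0.108). HOXC9 was at -1.19 and -1.15 at 24 h (-1.17 ± 0.027, limma adjusted p = 0.0215) and at 0.33 and 0.63 at 48 h (0.48 ± 0.21, limma adjusted p = 0.0487). HOXC12 had the same signs, at -1.36 and -1.58 and then at 0.29 and 1.12, without passing at either time (limma adjusted p = 0.0543 and 0.14). With arrays scaled to one spread or quantile-normalized, HOXC5, HOXC8 and HOXC12 were called lower at 24 h. The 48 h call of HOXC9 and the 24 h call of HOXB3 were lost with robust variance moderation (limma adjusted p = 0.0598 and 0.0617) and with the median of features (0.0513 and 0.0837). HOXC13, a gene of hair and nail formation, had the reverse signs, at 0.19 and 0.28 and then at -0.19 and -0.66, and did not pass. HOXC10 was between -0.08 and 0.55 and HOXC11 between -0.11 and 0.37 on the 4 arrays, and the features of HOXC10 had opposite signs. HOXA2, which sets the identity of the second pharyngeal arch, was at -0.86 and -0.84 at 24 h and at 0.68 and -0.01 at 48 h, with no call (limma adjusted p = 0.0887 and 0.309).

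**Figure D2:**
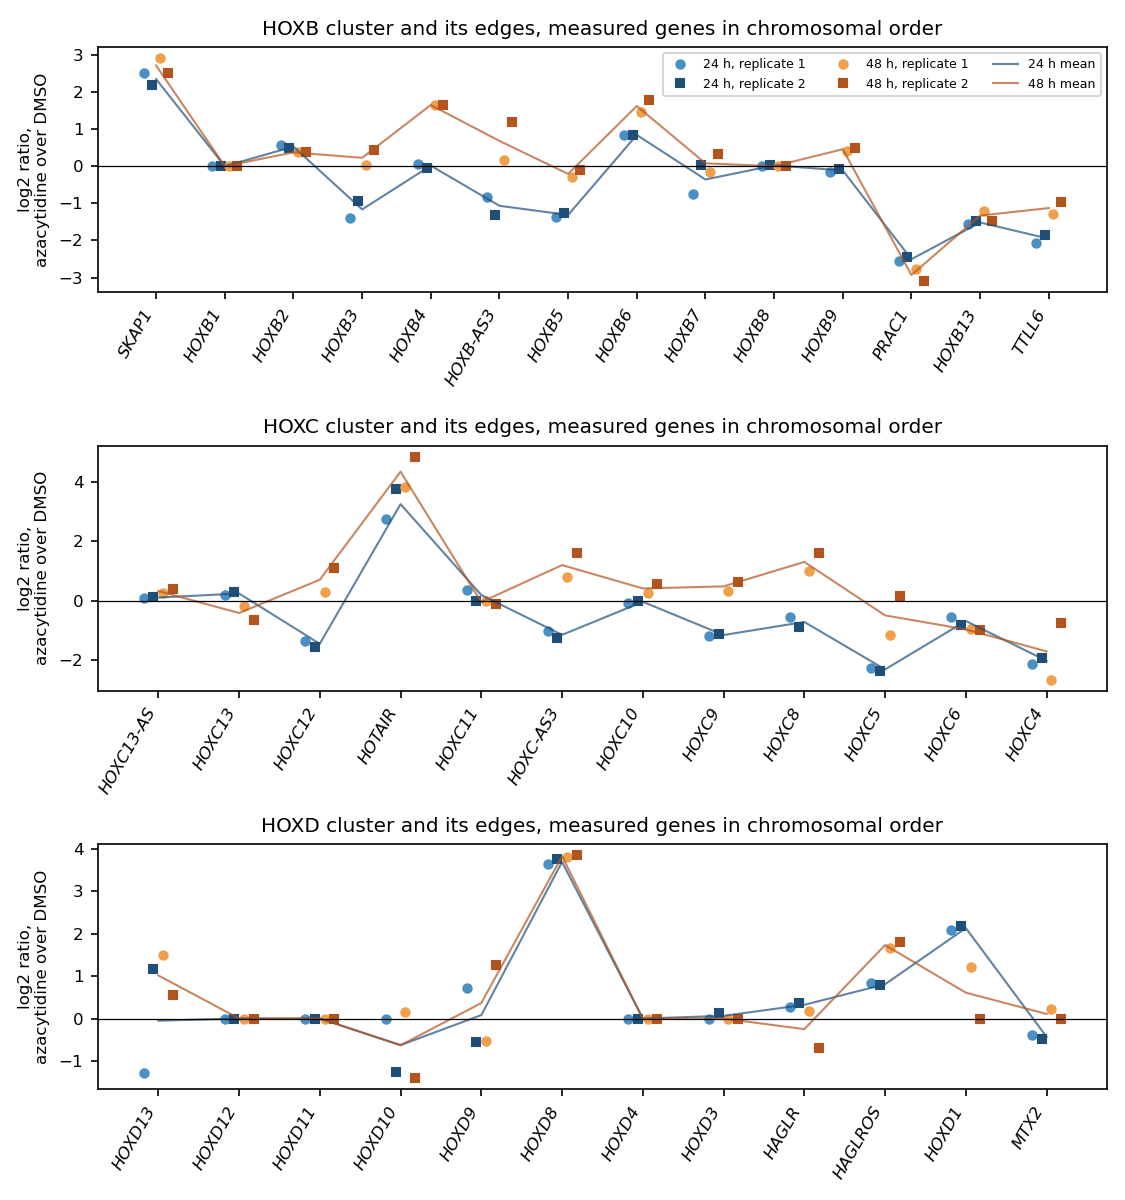
Log2 ratio of 5-azacytidine over DMSO (vertical axis) for the measured genes of the HOXB, HOXC and HOXD clusters and their edges, in the order of the gene table along the chromosome, with points for arrays and lines for the mean of each time. PRAC1, HOXB13 and TTLL6 lie below 0 on all arrays, HOTAIR lies above 2.7 on all arrays between HOXC12 and HOXC11, and HOXD8 stands alone above its neighbours.

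The 48 h ratio minus the 24 h ratio was tested for each gene. It was higher at 48 h for 5 HOX genes, or 17.2%, and lower for 0, by limma. Of all genes 9.83% passed higher and 13.1% lower, or 1802 and 2409 genes, a split that became 3673 and 3206 with quantile normalization. The 5 were HOXC8 at 2.03 (limma adjusted p = 0.0444), HOXC9 at 1.65 (0.0284), HOXB4 at 1.63 (0.0225), HOXB5 at 1.11 (0.0299) and HOXB9 at 0.57 (0.0363). They differed in kind: HOXB5 was less far below 0 at 48 h, HOXB4 left 0, and HOXC8, HOXC9 and HOXB9 were above 0 at 48 h after values below 0 at 24 h. At an unadjusted p under 0.05, 10 HOX genes were higher at 48 h (23.7% of all genes) and 0 lower (23.9% of all genes). The 48 h arrays lay above both 24 h arrays for 13 of 29 genes (34.4% of all genes) and below them for 4 (36.7% of all genes). Values below 0 on both 24 h arrays and above 0 on both 48 h arrays were found for 6 HOX genes (HOXB3, HOXB9, HOXC8, HOXC9, HOXC10 and HOXC12; 14.4% of all genes), and the reverse for 1 (HOXC13; 17.7% of all genes). Without 48 h replicate 1 the test called 11 HOX genes higher and 2 lower (HOXC13 and HOXD1), while calls over all genes rose to 18.2% and 24.3%. Without 48 h replicate 2 it called 6 higher and 1 lower, against 9.79% and 13.8% of all genes, and HOXB9 and HOXC8 were no longer called. Across the 29 genes the 24 h and 48 h means correlated with r = 0.701, against r = 0.428 over all genes. HOXD8 lies far from the other points behind the first value.

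**Figure D3:**
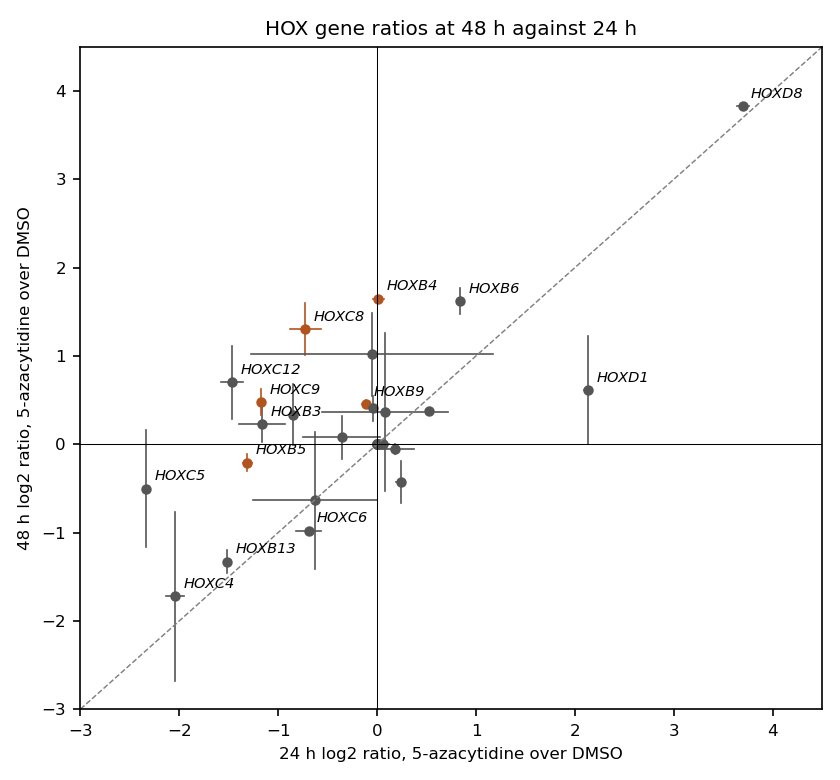
Mean log2 ratio of 5-azacytidine over DMSO at 48 h (vertical axis) against 24 h (horizontal axis) for the 29 HOX genes, with bars that span the 2 arrays of each time and a dashed line of equal values. The 5 genes whose difference passed the test (orange) all lie above the line, while HOXD8 and HOXB13 lie close to it.

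By position in the clusters, the 6 anterior genes (numbers 1 to 3) had a median ratio of 0.03 at 24 h and 0.28 at 48 h, with 1 higher and 1 lower at 24 h and 1 higher at 48 h. Over all genes limma called 14.3% higher and 9.97% lower at 24 h, and 18.2% and 20.7% at 48 h. The 11 central genes (4 to 8) had medians of -0.36 and 0, with 2 higher and 2 lower at 24 h and 4 higher and 1 lower at 48 h. The 12 posterior genes (9 to 13) had medians of -0.05 and 0.18, with 0 higher, also at an unadjusted p under 0.05, and 2 lower at 24 h (HOXB13 and HOXC9) and 2 higher and 1 lower at 48 h. By cluster, the HOXB median was -0.06 at 24 h and 0.15 at 48 h, the HOXC median -0.73 and -0.05, and the HOXD median 0 at both times, with 3 of 9 HOXD genes listed at 0 on all arrays. HOXB had 2 genes higher and 3 lower at 24 h and 4 higher and 1 lower at 48 h. HOXC had 0 and 2 at 24 h (0 and 6 at an unadjusted p under 0.05, against 23.3% and 19.1% of all genes) and 2 and 1 at 48 h, and HOXD had HOXD8 alone. Genes of one number shared a sign in some cases and not in others. HOXB5 and HOXC5 had means below 0 at both times, and HOXB9 and HOXC9 were both called higher at 48 h and in the difference. Among the genes numbered 4, HOXB4 was at 0.01 ± 0.075 at 24 h and HOXC4 at -2.04 ± 0.13, and HOXD4 was listed at 0. Among those numbered 13, HOXB13 was lower, HOXC13 was at 0.24 ± 0.064 and the HOXD13 arrays disagreed in sign.

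Of the 29 genes 8 were measured by several features, and in 5 of them the features lay over 1 apart at one time or both. HOXB13 and HOXC8 had features that agreed in sign at each time. The features of HOXB6 averaged 1.21 and 0.47 at 24 h and 2.26 and 0.99 at 48 h, so both were above 0 by different amounts. The HOXC10 features averaged 0.56 and -0.65 at 24 h and -0.14 and 0.95 at 48 h, so that the gene mean near 0 at 24 h describes neither. The 3 HOXB3 features averaged from -1.69 to -0.66 at 24 h and from -0.28 to 0.60 at 48 h. An exact 0 on at least 1 array was listed for 11 of the 38 features, and 5 were at 0 on all arrays.

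**Figure D4:**
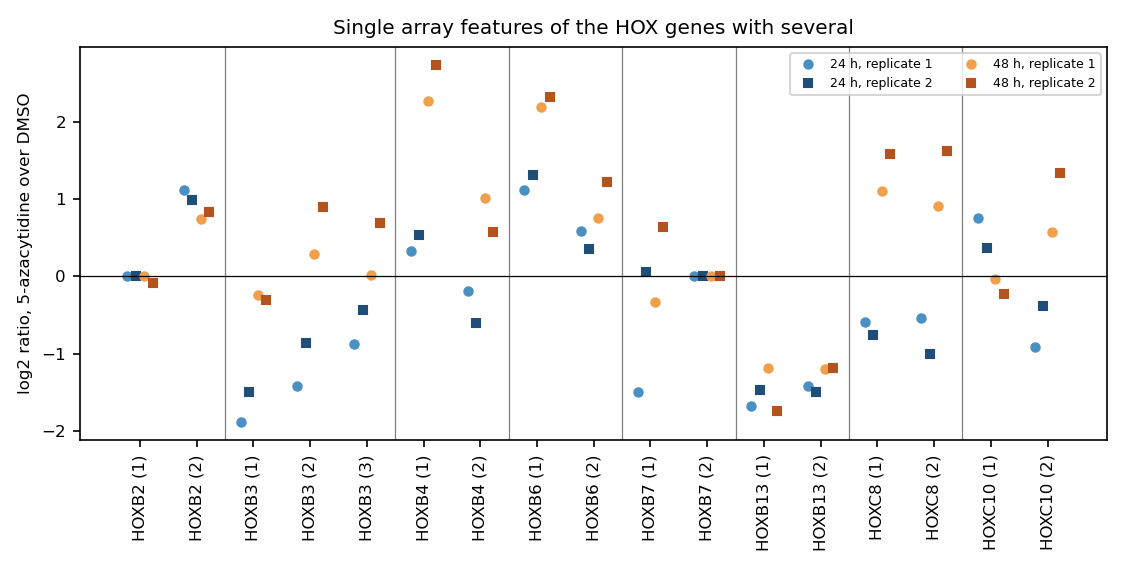
Log2 ratio of 5-azacytidine over DMSO (vertical axis) of each single feature, numbered in brackets, of the 8 HOX genes with several features, with a point for each array. Both HOXB13 features lie below -1.1 throughout, both HOXC8 features change sign between times, and the HOXC10 features run in opposite directions.

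Long non-coding RNA genes of the clusters included the highest ratio after HOXD8 at 24 h and the highest of all at 48 h among the cluster genes. Of 19 listed, 9 were measured, with 3 higher and 0 lower at 24 h and 4 higher and 0 lower at 48 h by limma, and medians of 0.32 and 0.68. Over all genes 14.3% were called higher and 9.97% lower at 24 h, and 18.2% and 20.7% at 48 h. At an unadjusted p under 0.05, 2 of the 9 RNA genes were lower at 24 h and 0 at 48 h, against 19.1% and 27.6% of all genes. HOTAIR, a HOXC transcript known for its link to Polycomb silencing, was at 2.75 and 3.78 at 24 h and 3.85 and 4.87 at 48 h (3.26 ± 0.73 and 4.36 ± 0.72, limma adjusted p = 0.0375 and 0.0184). In the gene table it lies between HOXC12 and HOXC11, neither of which passed a test. HOTTIP, known from other cells to bring the WDR5 and MLL complex to posterior HOXA genes, was at 1.72 and 1.36 at 24 h and 2.42 and 2.47 at 48 h (limma adjusted p = 0.0195 and 0.00888). HAGLROS, an RNA gene between HOXD3 and HOXD1, was at 0.83 and 0.79 and then at 1.66 and 1.80 (limma adjusted p = 0.0179 and 0.00725). HOXC13-AS was higher at 48 h only by a small amount (0.32 ± 0.10, limma adjusted p = 0.0371). HOXC-AS3, beside HOXC10 and named after its values were seen, was at -1.05 and -1.28 at 24 h and at 0.81 and 1.59 at 48 h, and its difference of 2.36 passed (limma adjusted p = 0.0463), with the same signs as HOXC8 and HOXC9. Which of several overlapping transcripts a feature measures was not tested.

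Of 14 genes listed as neighbours of the clusters 13 were measured, among them PRAC1, which lies between HOXB9 and HOXB13. Limma called 1 higher and 3 lower at 24 h (14.3% and 9.97% of all genes). At 48 h it called 1 higher and 7 lower (18.2% and 20.7% of all genes). The higher one was SKAP1, an adaptor gene beyond the anterior end of HOXB, at 2.35 ± 0.23 and 2.71 ± 0.28 (limma adjusted p = 0.0182 and 0.0103), next to HOXB1, which was listed at 0. SKAP2, beyond the anterior end of HOXA, was lower at -1.30 ± 0.25 and -1.16 ± 0.17 (limma adjusted p = 0.0271 and 0.0219). Single SKAP2 features ran from -2.24 to 0.17 on the 48 h arrays. Of the TALE homeodomain partners of HOX proteins, 8 of 9 listed were measured, with 1 higher and 2 lower at 24 h and 2 higher and 1 lower at 48 h. MEIS2 was at 0.69 and 1.86 at 24 h, which did not pass, and at 3.03 and 3.48 at 48 h (limma adjusted p = 0.0223). One MEIS2 feature was at 4.24 and 5.42 at 48 h and the other at 1.81 and 1.53. PBX3 was higher at 24 h (0.84 ± 0.024), MEIS3 lower at 48 h (-0.92 ± 0.045) and PKNOX1 lower at 24 h (-0.56 ± 0.062). The small SD of MEIS3 comes from averaging: its features were at -0.65 and -1.21 and at -1.26 and -0.57 at 48 h. Single PKNOX1 features ran from -1.21 to 0.02 on the 24 h arrays. Of 7 measured ParaHOX and EVX genes, relatives of HOX outside or beside the clusters, 0 passed at 24 h by limma. At an unadjusted p under 0.05, 1 was higher at 24 h (23.3% of all genes). At 48 h 2 were lower by limma, CDX2 at -0.64 ± 0.28 and PDX1 at -0.45 ± 0.003. A PDX1 feature was listed at 0 on all arrays and the other was at -0.90 and -0.89 at 48 h.

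Among 19 measured Polycomb genes 1 was higher and 6 lower at 24 h, and 1 higher and 7 lower at 48 h, with medians of -0.46 and -0.21. For this list and the next ones, the shares over all genes were 14.3% and 9.97% at 24 h, and 18.2% and 20.7% at 48 h. JARID2, a cofactor of the H3K27 methyltransferase complex, was the higher one, at 0.63 and 0.53 at 24 h and at 1.48 and 1.53 at 48 h (limma adjusted p = 0.0198 and 0.00721). EZH1 was at -0.46 ± 0.077 and -0.78 ± 0.097, RBBP7 at -0.98 ± 0.37 and -1.30 ± 0.009, and PCGF2 at -0.62 ± 0.13 and -0.49 ± 0.096, each lower at both times. The small 48 h SD of RBBP7 comes from averaging: its features were at -1.26 and -1.75 and at -1.33 and -0.87. Of 10 genes of the Trithorax group and H3K27 demethylases, which oppose Polycomb, 1 was higher and 2 lower at 24 h and 1 higher and 3 lower at 48 h. PSIP1 was lower at -1.17 ± 0.11 and -0.94 ± 0.047, WDR5 was higher at 24 h (0.77 ± 0.031), and KDM6A and ASH2L were lower at 48 h (-1.12 ± 0.011 and -1.05 ± 0.31). Single PSIP1 features ran from -3.08 to 0.88 on the 48 h arrays. Retinoic acid induces HOX genes in embryos. Of 14 measured genes of its pathway 5 were higher and 0 lower at 24 h by limma. At an unadjusted p under 0.05, 1 was lower at 24 h (19.1% of all genes). At 48 h 3 were higher and 3 lower by limma. The retinoid uptake gene STRA6 was at 1.72 ± 0.067 and 3.18 ± 0.25, the retinaldehyde reductase gene DHRS3 at 2.63 ± 0.30 and 2.29 ± 0.15, and the binding protein gene CRABP2 at 0.81 ± 0.24 and 2.26 ± 0.14, all higher at both times. The receptor gene RXRB was higher at 24 h (0.62 ± 0.049) and lower at 48 h (-1.30 ± 0.059). Of markers of cell types, 2 of 4 prostate luminal genes were higher and 1 lower at 24 h and 2 higher and 2 lower at 48 h. Of 2 basal genes 0 passed by limma, and 1 was higher at 48 h at an unadjusted p under 0.05 (25% of all genes). Of 7 stromal genes 1 was higher at 24 h and 2 higher and 2 lower at 48 h. The part of these genes in the HOX ratios was not tested.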

How the data were processed

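The authors deposited 1 table of log10 ratios, 1 column per array, with 45220 features, of which 43376 had values. Per the submitters' processing notes they came from Agilent Feature Extraction 8.5.1.1. Settings of that software are not given in the sources used here. Base and direction (log10, Cy5 over Cy3) are those the software usually writes, with the dyes named in the labels, and are not stated in the table. The values were multiplied by 3.322 to give log2 ratios. Array medians over genes were 0. From 6011 to 6695 features per array were listed at exactly 0, and whether values were also centred is not stated. No filter on brightness was applied, as intensities were not analysed here.

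Features with 1 gene symbol in the platform annotation, 31332 in all, were averaged per gene. The limma package 3.58.1 (R 4.3.3) was run on all 18334 genes, with 1 mean per time, moderated variances and Benjamini-Hochberg adjustment over all genes (2 residual and 0.735 prior degrees of freedom). A term for the replicate number was an alternative. Differences between replicate arrays correlated with r = -0.0347 between times. This value cannot decide whether the numbers pair samples, as an effect shared by drug and DMSO cells would cancel in each ratio. The labels do not say whether they do. Alternatives were another scaling of the arrays, the median of features, removal of features or genes listed at 0, robust moderation, the arrays of one time only and each array left out. The HOX genes and gene lists were chosen with earlier results of these data known. Genes given array by array were those passing at 24 h, 48 h or in the difference, plus HOXB13, and from each list up to 4 genes with the lowest p in the average that passed at 24 h or 48 h. The other members were described by their values after these were seen. Marker genes were counted, and 2 of them that this rule took are named with their difference between times. COL1A1, MTF2, RBBP4, PBX2, SMUG1 and LNPK were added for that difference after their values were seen. Figures were drawn with matplotlib 3.10.9.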

Additional observations from a re-analysis of the deposited data

Results flagged for a closer look

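The ratio differed between 24 h and 48 h, by limma's test of 48 h minus 24 h at an adjusted p threshold of 0.05, for 5 HOX genes, all higher at 48 h: HOXC8 by 2.03, HOXC9 by 1.65, HOXB4 by 1.63, HOXB5 by 1.11 and HOXB9 by 0.57. The RNA genes HOXC-AS3 (2.36) and HAGLROS (0.93) were higher at 48 h as well. Of the partners and relatives of HOX, PKNOX1 (0.54) and PBX2 (0.75) were higher, and PBX3 (-0.83), MEIS3 (-0.96), CDX2 (-1.15) and PDX1 (-0.45) were lower. The PKNOX1 features differed. One went from -1.21 and -1.04 at 24 h to 0.18 and 0.47 at 48 h. Another went from -0.36 and -0.31 to -0.04 and -0.08, and the last from 0.02 and -0.47 to -0.32 and -0.36. Of the listed neighbours SMUG1 (-1.48) and LNPK (-2.3) were lower. Of chromatin genes JARID2 was higher (0.93), and WDR5 (-0.95) and KDM6A (-0.92) were lower. The Polycomb genes MTF2, which was higher, and RBBP4, which was lower, also passed, each with a larger difference. Of retinoic acid genes CRABP2 (1.45) and STRA6 (1.47) were higher and RXRB lower (-1.92). Of stromal markers COL1A1 was higher (2.21), and COL3A1 (-0.75) and LUM (-1.36) were lower. A COL3A1 feature rose, from 0.79 and 1.07 at 24 h to 1.20 and 1.36 at 48 h. With 2 arrays at each time, no test for a single outlying array was possible.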

How the results depend on the processing

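Counts of HOX genes called by limma followed those over all genes in several settings. With the replicate block 0 HOX genes, and 0 of all 18334 genes, were called in every comparison. At an unadjusted p under 0.05, 4 HOX genes were then higher and 8 lower at 24 h (19.7% and 15.7% of all genes). The HOX counts were 8 and 3 at 48 h (21.1% and 23.4% of all genes). They were 6 and 8 in the average (19.4% and 20.1%) and 8 and 0 in the difference (19.2% and 19.3%). From the 48 h arrays alone 0 of all genes, HOX genes included, were called at 48 h (6 HOX genes higher and 2 lower at an unadjusted p under 0.05, against 16.6% and 17.8% of all genes). Leaving out 1 array leaves 1 array at one time, so HOX counts of those fits are not compared here. Without either 24 h array the spread is estimated from the 48 h arrays alone, and every call was lost, of HOX genes and of all others. Lower calls at 24 h, lower calls in the average and higher calls in the difference, 5, 3 and 5 as reported, rose to 10, 7 and 9 without features listed at 0, to 8, 6 and 9 with arrays scaled to one spread, to 8, 5 and 10 with quantile normalization, and to 9, 6 and 9 without genes at 0 on all arrays, which was added after seeing the data. Shares of all genes called rose with them, from 9.97%, 16.2% and 9.83% to 16.7%, 24.4% and 22.8%, to 19.2%, 20.3% and 17.2%, to 20%, 20.7% and 20%, and to 13.8%, 20.8% and 18.8%, in the same order. Without features listed at 0, 20 HOX genes were left and 1 was 2-fold higher on both 24 h arrays, since HOXD1 was removed. For the 11 genes given with full statistics, 306 of 418 recomputed values kept their side of the threshold, 98 lost a call, 14 gained one and 0 turned a called direction. Losses in settings that called 0 of all genes were fixed for every gene. Values of one time were the same fit, counted again, from its arrays alone and without either array of the other time. HOXD8 and HOXB13 kept their direction at both times in each setting. Most settings could not change it, as all 4 arrays of each gene share a sign. The log2 ratios ran from 3.34 to 4.30 for HOXD8 and from -1.86 to -1.09 for HOXB13. Their adjusted p ranged from 5.94e-04 to 0.211 and from 0.0028 to 0.211. The cause of changes under scaling was not tested.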
